A study of Mus musculus with 8 samples.

Results

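The 10 genes Cd34, Thy1, Pdgfra, Ptgds, Clec3b, Pi16, Dpp4, Vim, Ly6a and Fap, which are used to recognise keratocytes and fibroblasts, were compared between the limbus and the cornea of the mouse. They were taken by symbol from a table of 23420 named genes, all 10 were found, and all 10 were among the 17442 named genes with reads. Most of their products sit at the cell surface, but vimentin is a protein of the cytoskeleton, and the products of Ptgds and Clec3b are secreted. The limbal rims and corneal buttons came from 16 eyes of wild type C57BL/6J mice aged 8 weeks and were pooled by tissue before RNA was extracted and sequenced. The labels number 4 samples per tissue, L001 to L004, a form also used for sequencing lanes. The deposited means were read as built from 1 library per tissue, which was inferred from how they resolve into whole reads. No values per sample were given, so there was no spread between animals or replicates to test against. Named genes took 26104317 reads in the cornea library and 21182025 in that of the limbus. The deposited columns name no tissue, so the side of each library was set from how the study's text orders its keratins, and a swap would turn every direction given here. All intervals below are exact 95% intervals that cover counting error only, and reads from PCR-amplified libraries are not independent molecules.

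Keratocytes are the quiet, neural crest derived cells of the corneal stroma, which lay down and keep the ordered collagen lamellae that make the tissue transparent. After injury they can become fibroblasts and myofibroblasts. The limbus is the ring where cornea, conjunctiva and sclera meet. It holds blood vessels and loose connective tissue, which the avascular but densely innervated cornea lacks, and connective tissue around vessels in many organs holds fibroblasts marked by Pi16, Dpp4, Cd34 and Ly6a. None of the 10 genes belongs to 1 cell type alone: Cd34 and Ly6a are also active in vessel endothelium and blood-forming cells, Thy1 in neurons and T cells, and Vim in nearly every mesenchymal cell. In bulk tissue, fewer cells of a type and less RNA per cell cannot be told apart.

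Of the 10 genes, 9 were higher in the limbus by more than counting error, and Pdgfra alone was higher in the cornea. Relative to a list of stromal matrix genes the 9 became 8, since Fap crossed to the other side. No share of all genes was worked out on that scale. After the size factors of the table, 36.4% of all 14764 genes with at least 10 reads over both libraries were higher in the limbus by more than counting error. In the cornea 38.6% were higher. A difference of at least 2-fold towards the limbus was found for 8 of the 10 genes and for 20.2% of all genes. The median of the 10 genes was 2.40 on the log2 scale, or 5.28-fold, and that of all genes was −0.01. Clec3b and Pi16 had 3 reads or fewer in the cornea. Of the 8 genes that passed 3 reads in each library, 7 were higher in the limbus, against 33.2% of the 13861 genes that did so, and 1 was higher in the cornea, against 40.6%. The differences ranged from 645-fold towards the limbus for Pi16 to 1.37-fold towards the cornea for Pdgfra.

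**Figure D1:**
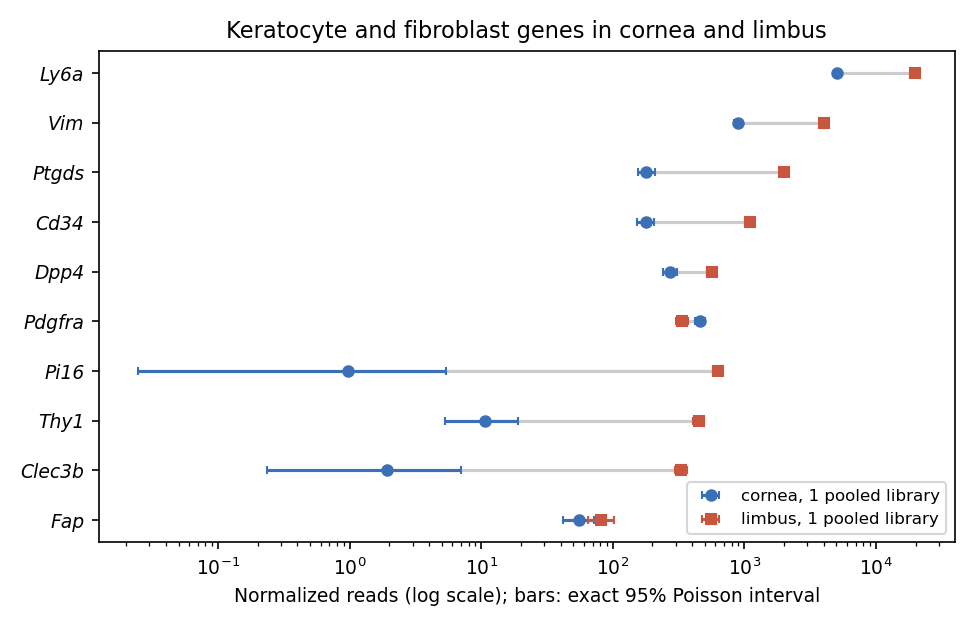
Normalized reads of the 10 genes on a log axis, with blue circles for the cornea library, red squares for the limbus library and bars for the exact 95% Poisson interval of the reads. Pi16, with 0.967 normalized corneal reads and 624 limbal ones, has the widest gap, and Pdgfra is, after the size factors of the table, the only gene whose cornea value (459) lies above its limbus value (336).

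Promoter sequences of 6 of the 10 genes were found in RefSeq (GRCm38.p6), each from 250 bases before to 50 bases after the start, and 4 of them are shown because they belong to the gene with the widest gap, to the gene of opposite direction, and to the most abundant of the remaining genes with an entry. Thy1, Clec3b, Ly6a and Fap had no entry. The 4 short motifs, spelled in the next paragraph, were searched on both strands, and capitals mark the letters that matched. The sequences run 5′ to 3′ on the strand of the gene.
Pi16 (chr17:29318632-29318931, plus strand): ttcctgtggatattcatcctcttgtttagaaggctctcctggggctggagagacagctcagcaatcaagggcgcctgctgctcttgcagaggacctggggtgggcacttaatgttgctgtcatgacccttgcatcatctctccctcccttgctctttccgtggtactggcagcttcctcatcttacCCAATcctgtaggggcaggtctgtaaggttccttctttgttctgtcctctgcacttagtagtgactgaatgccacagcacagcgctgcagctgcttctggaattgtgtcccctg
Pdgfra (chr5:75152001-75152300, plus strand): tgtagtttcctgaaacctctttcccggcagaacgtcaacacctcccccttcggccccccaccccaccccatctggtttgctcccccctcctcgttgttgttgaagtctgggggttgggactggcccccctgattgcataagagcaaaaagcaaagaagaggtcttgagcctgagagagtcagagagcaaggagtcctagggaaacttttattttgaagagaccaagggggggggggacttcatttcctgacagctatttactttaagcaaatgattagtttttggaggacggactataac
Ptgds (chr2:25469700-25469999, minus strand): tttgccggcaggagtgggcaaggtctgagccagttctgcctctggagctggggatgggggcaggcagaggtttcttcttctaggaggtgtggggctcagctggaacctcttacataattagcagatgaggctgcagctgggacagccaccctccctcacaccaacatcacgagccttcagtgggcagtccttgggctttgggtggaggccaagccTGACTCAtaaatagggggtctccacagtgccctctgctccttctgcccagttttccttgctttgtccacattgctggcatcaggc
Vim (chr2:13574061-13574360, plus strand): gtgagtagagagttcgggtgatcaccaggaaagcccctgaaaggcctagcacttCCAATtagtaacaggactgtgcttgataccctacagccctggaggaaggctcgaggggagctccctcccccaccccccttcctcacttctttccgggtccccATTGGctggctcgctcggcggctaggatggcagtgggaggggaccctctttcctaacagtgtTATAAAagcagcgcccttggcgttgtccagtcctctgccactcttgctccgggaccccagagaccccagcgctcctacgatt

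The Vim promoter held the TATA box TATAAA 32 bases before the start, and the CCAAT box was met at 196 bases before the start and, on the other strand, at 94 bases before it. The Ptgds promoter held TGANTCA, the letters of an AP-1 site, 35 bases before the start, where the motif matches both strands. Pi16 held CCAAT 64 bases before the start, and Dpp4 held TATAAA 227 bases before it. Neither Pdgfra nor Cd34 held any of the 4 motifs, and the GC box GGGCGG was in none of the 6. Among 32851 promoters of the same length, TATAAA was in 13.6%, CCAAT in 37.4%, GGGCGG in 35.7% and TGANTCA in 7.81%. These are matches of letters, and the motifs do not overlap each other in the sequences shown. The GC content of the 6 promoters ran from 45.3% in Dpp4 to 59.3% in Vim, around a median of 52.7% for all promoters, with Pdgfra at 51.0% and Pi16 at 53.3%.

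Pi16 and Clec3b showed the widest gaps. Pi16, a secreted or membrane-bound protein of the CAP superfamily named for peptidase inhibition, had 1 corneal and 604 limbal reads, a ratio of 645 whose interval of 115 to 25536 is wide because of the single cornea read. Clec3b encodes tetranectin, a secreted lectin-like protein that binds plasminogen. It had 2 corneal and 320 limbal reads, a ratio of 171 (interval 46.9 to 1418). Both genes were therefore close to undetected in the cornea while both were well above counting noise in the limbus. Their intervals overlap, so the order of Pi16 and Clec3b by ratio was not resolved at this depth. Pi16 lies on chromosome 17 (29317680 to 29330593, plus strand, GRCm38, GENCODE M21) and Clec3b on chromosome 9 (123150946 to 123157432, plus strand). An antisense gene, AC162182.1, overlaps Pi16. The study names a stranded kit for its libraries, but whether reads were counted by strand is not given in the sources used here.

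Dpp4 encodes a membrane serine protease that removes dipeptides after proline, and marks the same kind of fibroblast as Pi16 in many organs. It had 281 corneal and 547 limbal reads, a difference of 2.08-fold (log2 1.06, interval 0.85 to 1.27). Unlike Pi16 and Clec3b, it was thus clearly detected in both tissues. Fap, fibroblast activation protein, is its closest relative, a membrane protease of activated fibroblasts, and had 57 corneal and 79 limbal reads (1.48-fold, log2 0.57, interval 0.06 to 1.08). The lower end of that interval lies just above 0, and relative to the stromal matrix genes Fap lay at −0.15. The intervals of Dpp4 and Fap overlap.

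Dpp4 and Fap are neighbours on the minus strand of chromosome 2, at 62330073 to 62412231 and 62500943 to 62574075, with 88711 bases between them. Gcg, the glucagon gene, is the single protein-coding gene in that gap and was listed with 0 reads in both libraries. Ifih1, on the far side of Fap, encodes a sensor of viral RNA and had 1193 corneal and 745 limbal reads. The antisense gene Gm13561 overlaps 55161 bases of Dpp4. Of the related prolyl oligopeptidases, 4 had at least 10 reads, of which 1 (Dpp9, log2 0.37) favoured the limbus and 3 favoured the cornea (Dpp8, −0.42, Prep, −0.81, and Prepl, −0.80). Relative to the stromal matrix genes all 4 were higher in the cornea. Dpp6 had 0 and 3 reads and Dpp10 was listed at 0.

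Cd34, a sialomucin of the cell surface found on keratocytes, vessel endothelium and blood progenitors, had 183 corneal and 1064 limbal reads. That is a difference of 6.21-fold (log2 2.64, interval 2.41 to 2.87), and the Poisson intervals of its normalized reads, 152 to 205 in the cornea and 1035 to 1168 in the limbus, lie far apart. Cd34 lies on chromosome 1 (194938819 to 194961279, plus strand), where the antisense gene Gm16897 overlaps 5521 of its bases. Its relatives Podxl, a sialomucin of kidney podocytes and vessels, and Podxl2 were both higher in the limbus, with 7 and 524 reads (log2 6.32) and 40 and 222 reads (log2 2.57). The vessel selectins Sele and Selp had no corneal read and 17 and 54 limbal reads, which is at least 6.06-fold and at least 19.2-fold higher against a floor of 3 corneal reads.

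Vessel genes were also higher in the limbus. All 8 endothelial genes, Pecam1, Cdh5, Kdr, Tek, Tie1, Emcn, Egfl7 and Esam, were higher in the limbus, with 237 corneal and 3355 limbal reads in all and a median of 6.89 on the log2 scale, and 7 of them relative to the stromal matrix genes. Kdr, the main receptor for VEGF, was the lowest of them with 170 and 278 reads (log2 0.81) and made up most of the endothelial reads in the cornea, and Pecam1, an adhesion molecule of endothelial junctions, had 6 and 831 reads (log2 7.21). Their part in the result for Cd34, and for Ly6a, was not tested.

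Thy1, a small protein held at the surface by a lipid anchor, had 11 corneal and 433 limbal reads. The difference was 42.1-fold (log2 5.39, interval 4.54 to 6.41), with an interval that overlaps that of Clec3b. It lies on chromosome 9 (44043384 to 44048579, plus strand). The neuronal genes Snap25, Nefl, Nefm, Rbfox3, Syt1 and Tubb3 had 28 corneal and 326 limbal reads in all, and all 5 of them with at least 10 reads were higher in the limbus (4 relative to the stromal matrix genes), while Rbfox3, a nuclear protein of mature neurons, had 0 and 2 reads. The T cell genes were near the floor in both tissues, with 58 corneal and 72 limbal reads over 6 genes, most of them from Cd5 (49 and 36). Of the genes for the signalling part of the T cell receptor, Cd3e had 1 and 4 reads, Cd3d 1 and 0, and Cd3g 0 and 3. The part of nerves in the Thy1 difference was not tested.

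Ly6a, also called Sca-1, encodes another lipid-anchored surface protein, known from blood stem cells and found on fibroblasts and endothelium. It had 5224 corneal and 19162 limbal reads, a difference of 3.92-fold (log2 1.97, interval 1.93 to 2.02). Its reads alone made up 71.1% of the corneal and 67.5% of the limbal reads of the 10 genes. Ly6a lies on chromosome 15 (74994877 to 74998031, minus strand) among close relatives, so reads of other Ly6 genes may have been counted with it and its value carries that limit. Of those relatives, 5 had at least 10 reads and all 5 were higher in the limbus, or 3 of the 5 relative to the stromal matrix genes. Ly6e had 6892 and 30590 reads (log2 2.25), Ly6c1, a marker of vessel and myeloid cells, had 34 and 542 (log2 4.09), and Ly6k had 7 and 20 (log2 1.61). Ly6d and Ly6i were also higher, Ly6c2 had 0 and 3 reads, and Ly6f was listed at 0.

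Pdgfra, the receptor for platelet-derived growth factors on fibroblasts and their precursors, was the exception. It had 475 corneal and 325 limbal reads, 1.37-fold higher in the cornea (log2 −0.45, interval −0.66 to −0.25). Its direction was the same under every scaling tried. Pdgfra lies on chromosome 5 (75152292 to 75198215, plus strand), overlapped on the opposite strand by Gm42802 and Gm42803 and on its own strand by the microRNA gene Mir7025. The other 6 genes of the family all went the other way. Pdgfrb, the receptor of pericytes and fibroblasts, had 274 and 995 reads (log2 1.96), the ligands Pdgfa, Pdgfb, Pdgfc and Pdgfd were higher in the limbus by 0.92 to 3.90 on the log2 scale, and Pdgfrl, a receptor-like gene, had 80 and 561 reads (log2 2.91). Of the 6, 5 were also higher relative to the stromal matrix genes. Of 6 pericyte genes, 5 were higher in the limbus, among them Rgs5, a regulator of G protein signalling, with 5 and 348 reads (log2 6.22), while Notch3, which had most of the reads of that list (5755 and 3349), was lower there. Their part in the Pdgfrb result was not tested.

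The proportions of the genes to Pdgfra therefore differed between the libraries. For every Pdgfra read there were 0.385 corneal and 3.27 limbal reads of Cd34, 0.592 and 1.68 of Dpp4, and 0.00211 and 1.86 of Pi16. Fap, the gene nearest to Pdgfra in direction, went from 0.12 to 0.243 reads per Pdgfra read.

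Ptgds, the lipocalin-type synthase of prostaglandin D2, is a secreted carrier as well as an enzyme, and is abundant in meninges and ocular connective tissue. It had 186 corneal and 1950 limbal reads, a difference of 11.2-fold (log2 3.49, interval 3.27 to 3.71). Other genes of its path lay on both sides. The cyclooxygenase Ptgs1 had 605 and 1007 reads (log2 0.83), Ptgs2 had 30 in each library (log2 0.10, within counting error), and Hpgds, the haematopoietic synthase of the same prostaglandin, had 4094 and 2512 (log2 −0.61). The receptor Ptgdr had 0 and 1 reads. So 1 of the 3 measured genes was higher in the limbus and 1 was lower there. Relative to the stromal matrix genes, none of the 3 favoured the limbus by more than counting error. Of a joint list of scleral and meningeal genes, Chad, Cilp, Comp and Chadl had at least 10 reads. All 4 were higher in the limbus, or 3 relative to the stromal matrix genes. Foxd1 had 0 corneal and 1 limbal reads, and the list had 26 and 523 in all. The list does not tell sclera from meninges, and the part of its genes in the Ptgds result was not tested. Ptgds lies on chromosome 2 (25466709 to 25470046, minus strand).

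Vim, the intermediate filament protein of mesenchymal cells, had 927 corneal and 3885 limbal reads (4.48-fold, log2 2.16, interval 2.06 to 2.27). It lies on chromosome 2 (13573927 to 13582826, plus strand). Of 5 relatives with at least 10 reads, 4 were higher in the limbus, or 2 relative to the stromal matrix genes. Des, the filament protein of muscle, had no corneal read and 305 limbal reads, beside 5 skeletal muscle genes with 37 corneal and 8672 limbal reads in all. Nes, found in progenitor cells, had 323 and 438 reads (log2 0.54), which was within counting error relative to the stromal matrix genes, and Synm, which joins filaments to the membrane, had 72 and 180 (log2 1.42).

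**Figure D2:**
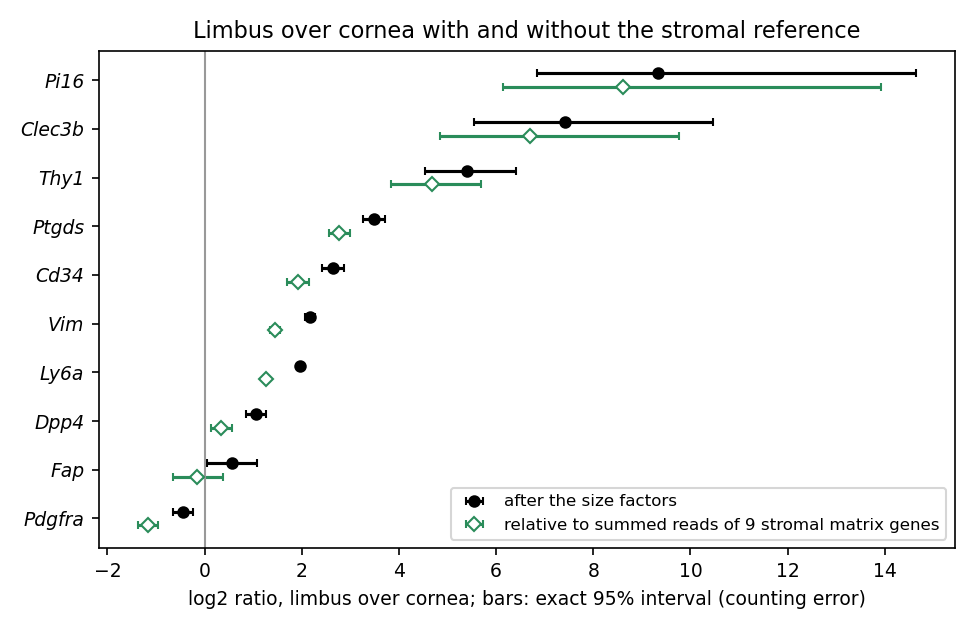
Log2 ratio of limbus over cornea for the 10 genes after the size factors of the table (black circles) and relative to the summed reads of 9 stromal matrix genes (open green diamonds), with exact 95% intervals of counting error as bars. After division by the stromal genes Pdgfra lies further towards the cornea at −1.17, Fap crosses 0 to −0.15, and the other 8 genes stay above 0, from Dpp4 at 0.34 to Pi16 at 8.62.

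Stromal matrix genes took a larger share of the reads in the limbus. The 9 stromal matrix genes (Col1a1, Col1a2, Col5a1, Col5a2, Col6a1, Col6a2, Col12a1, Lum and Dcn) had 83812 reads in the cornea, 0.321% of the library, and 128628 in the limbus, 0.607%. After the size factors of the table the difference in their reads was 0.71 on the log2 scale. Relative to their sum, 8 of the 10 genes still favoured the limbus by more than counting error and Pdgfra was lower there. The share of all genes was not worked out relative to this sum, so counts on this scale have no share beside them. Ptgds went to 2.77, Ly6a to 1.26 and Cd34 to 1.92 on the log2 scale. Fap went to −0.15 with an interval of −0.66 to 0.37, so its direction depended on the scaling and neither direction was shown. The median of the 10 genes was then 1.69. These 9 genes are themselves not equal between the tissues, since Col1a1 was higher in the limbus (log2 1.25) and Col5a2 in the cornea (−0.37).

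In levels per exon length (reads per kilobase of the union of a gene's exons, per 1e6 reads on named genes), Ly6a led in both libraries, at 166 in the cornea against 751 in the limbus. In the cornea it was followed by Vim (7.49), Ptgds (4.32), Pdgfra (1.82), Dpp4 (1.70), Cd34 (0.962), Fap (0.386), Thy1 (0.141), Clec3b (0.0772) and Pi16 (0.00602). Neighbours with overlapping intervals there were Pdgfra with Dpp4, Thy1 with Clec3b, and Clec3b with Pi16, so these orders were not resolved. In the limbus Ly6a was followed by Ptgds (55.8), Vim (38.7), Clec3b (15.2), Cd34 (6.89), Thy1 (6.83), Pi16 (4.48), Dpp4 (4.09), Pdgfra (1.53) and Fap (0.659), with Cd34 and Thy1, and Pi16 and Dpp4, unresolved. Clec3b thus went from rank 9 to rank 4 and Pdgfra from rank 4 to rank 9, while Fap went from rank 7 to rank 10 although its ratio was above 1. With the longest transcript as the length, Cd34 and Dpp4 changed places in the cornea and Cd34 and Clec3b in the limbus.

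**Figure D3:**
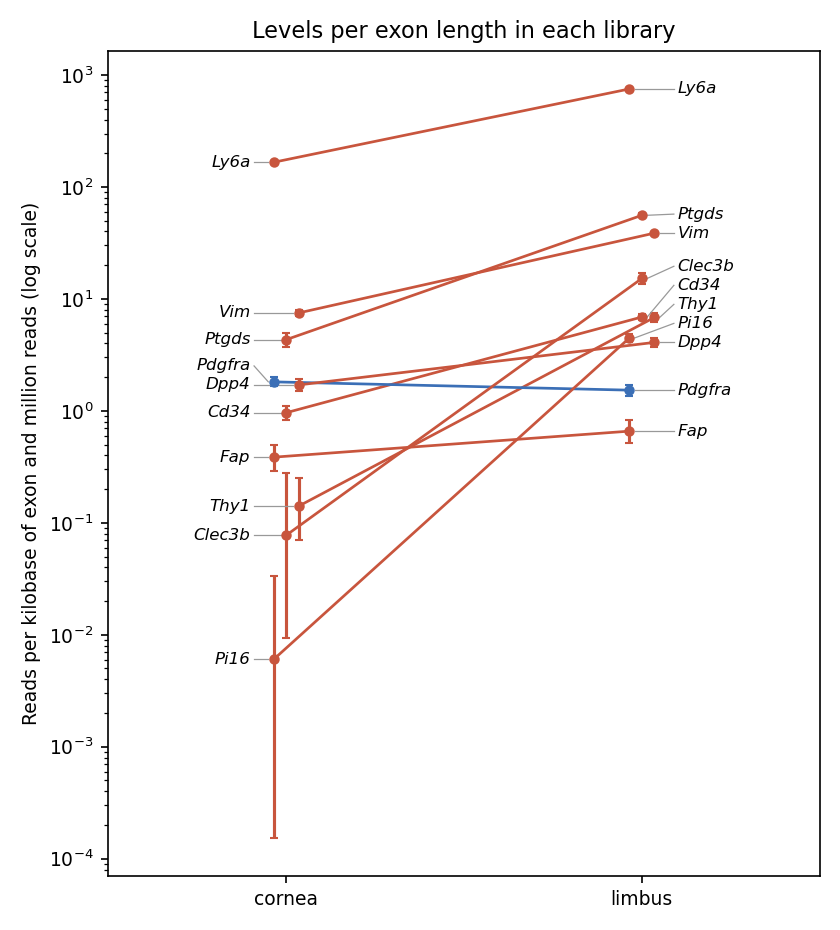
Levels of the 10 genes in each library in reads per kilobase of exon and 1e6 reads, on a log axis, with exact 95% Poisson intervals as bars, red lines for genes higher in the limbus and the blue line for Pdgfra. Points are shifted sideways to show their bars, and thin grey strokes lead to the labels. The steepest lines are those of Pi16 (0.00602 to 4.48) and Clec3b (0.0772 to 15.2), and they cross those of Pdgfra and Fap.

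Keratocyte genes lay on both sides. Of 13 with at least 10 reads, 7 were above a ratio of 1 in favour of the limbus, 5 in favour of the cornea and 1 was within counting error, with a median of 0.26. Kera, the keratan sulfate proteoglycan keratocan, had 12119 corneal and 1423 limbal reads (log2 −2.99), the lowest ratio of the list, and Gpx3, a secreted peroxidase, had 52 and 995 (log2 4.35), the highest. Aldh3a1, a crystallin-like dehydrogenase that the corneal epithelium also makes, had the most reads and was higher in the cornea (−1.22). Relative to the stromal matrix genes 4 favoured the limbus and 8 the cornea, so the balance of this list turned with the scaling. Lum and Dcn are in both lists and were thus partly divided by themselves. Both were among the genes that came to favour the cornea, so the turn rests partly on this overlap. Pdgfra thus lay on the side of Kera, and Cd34 on the side of Gpx3.

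In the list of perivascular (adventitial) fibroblast genes without the 10 members, 15 of 19 were higher in the limbus, 2 were lower there and 2 were within counting error, with a median of 1.83, and 13 were higher relative to the stromal matrix genes. Igfbp6, which binds insulin-like growth factors, had 6 and 1023 reads (log2 7.51), Gsn, which severs actin filaments, had the most reads (22758 and 34448, log2 0.69, slightly below 0 relative to the stromal genes), and Sema3c, a guidance factor, was higher in the cornea (log2 −1.15). In the list of activated fibroblast and myofibroblast genes, 8 of 10 were higher in the limbus and 1 was lower there, with a median of 3.97, or 3.37 with Lrrc15, which had no corneal read and 13 limbal reads, set at a floor of 3 corneal reads. Tnc, the matrix protein tenascin, had 9 and 834 reads (log2 6.63). Fn1, fibronectin, had the most reads of that list and was higher in the cornea at −0.24, which fell within counting error with scaling to total reads, and Cthrc1, a secreted collagen triple helix protein, lay at −0.29 within counting error. Muscle and vessel wall also make some of these genes (Acta2, Tagln and Cnn1), and their part was not tested.

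Of the other CAP superfamily genes beside Pi16, 3 of 4 with at least 10 reads were higher in the limbus, with a median of 3.09. Glipr1 had 10 and 95 reads (log2 3.34), Crispld2 had 90 and 601 (log2 2.84), and Crispld1 had 9 and 18 (log2 1.10, within counting error).

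**Figure D4:**
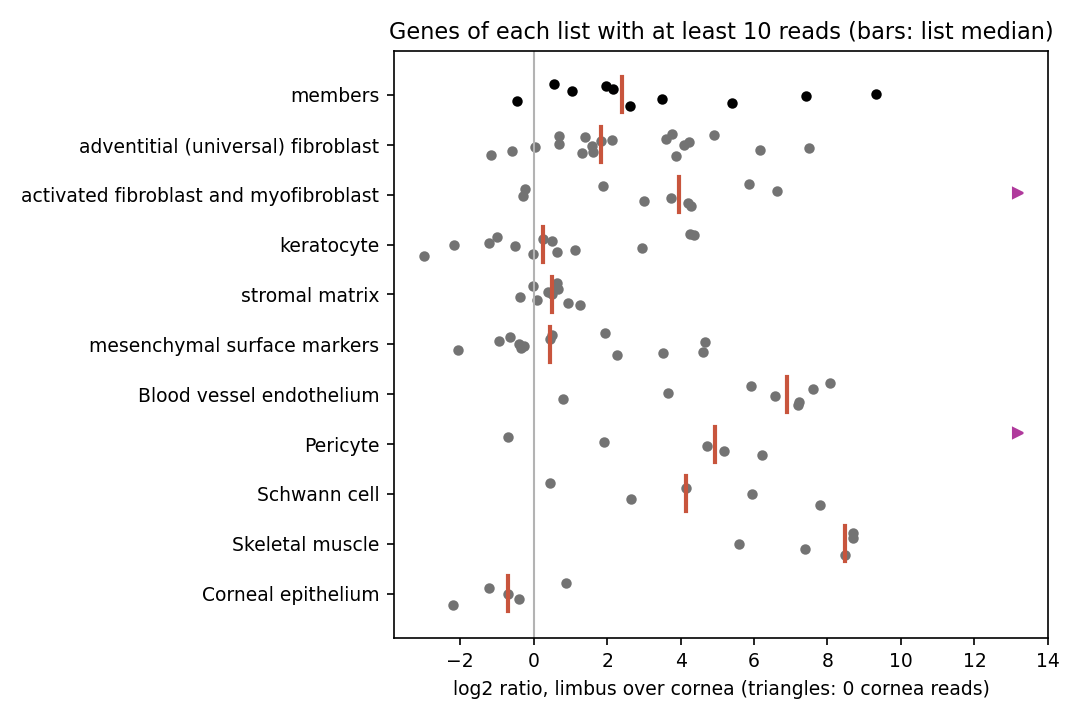
Log2 ratio of limbus over cornea for each gene with at least 10 reads in the 10 genes and in 10 gene lists, with red bars for the list medians (in which genes at 0 in the cornea count as highest) and triangles for genes with 0 reads in the cornea. The 10 genes (median 2.40) lie on both sides of the median of the adventitial list (1.83). The median of the keratocyte list sits near 0 (0.26), and those of endothelial (6.89) and skeletal muscle genes (8.46) lie furthest to the right.

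**Figure D5:**
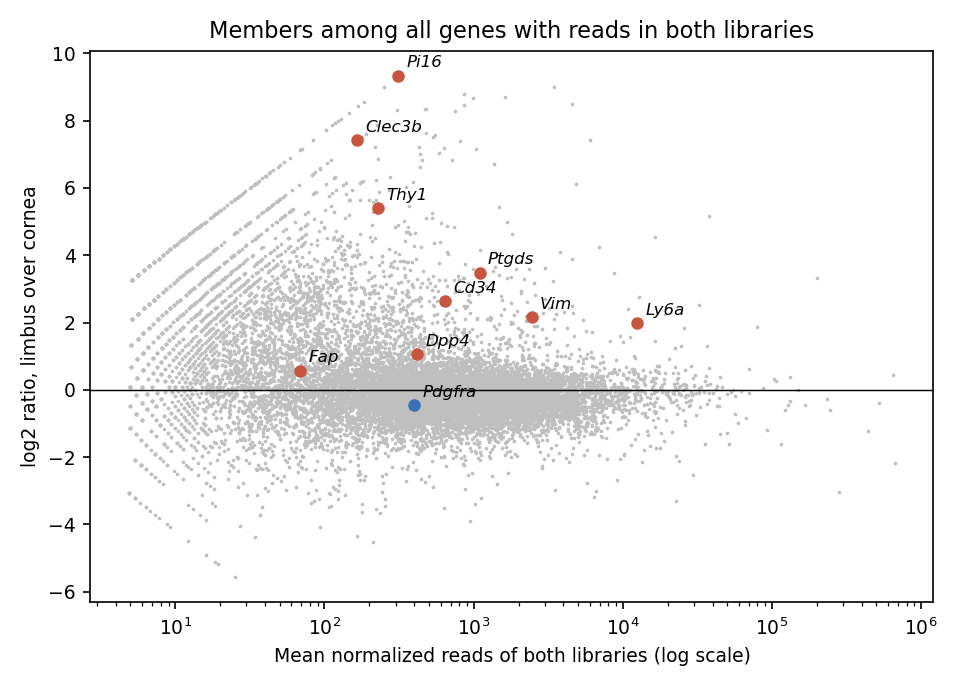
All genes with at least 10 reads and a read in both libraries (grey points), by mean normalized reads on a log axis and log2 ratio of limbus over cornea, with the 10 genes marked in red where higher in the limbus and blue where higher in the cornea. Pi16 (9.33) and Clec3b (7.42) lie at the upper edge that genes with 1 or 2 cornea reads form, and Pdgfra (−0.45) is the only marked gene below 0 after the size factors of the table.

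Krt12, the keratin of corneal epithelium, had 1137735 corneal and 233324 limbal reads, and Krt15, a keratin of limbal basal cells, had 37738 and 353826, and these genes served to set the sides of the table. Markers of other tissues were also higher in the limbus, 5 of 5 for Schwann cells (4396 corneal and 6830 limbal reads in all), 5 of 5 for melanocytes (316 and 1590), 4 of 5 for retina and retinal pigment epithelium (441 and 3674) and 5 of 5 for leukocytes and macrophages (6575 and 10095). These counts became 4, 5, 4 and 2 relative to the stromal matrix genes. Limbal and conjunctival epithelial genes, Krt15 among them, had 76838 corneal and 576801 limbal reads in all. All 4 of them with at least 10 reads were higher in the limbus, also relative to the stromal matrix genes. Krt4 had 2138 and 71498 reads (log2 5.16), and Krt13 had 35544 and 120736 (log2 1.86). Adipocyte genes were near the floor in both (12 and 3). The part of these tissues in the values of the 10 genes was not tested.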

How the data were processed

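In CLC Genomics Workbench 20 the authors trimmed adaptors, mapped the paired-end reads to GRCm38 (mm10), and name the trimmed mean of M-values as normalization. The authors deposited 1 table of the comparison, whose mean is a signal made by dividing each library's reads by a size factor and averaging. The authors also deposited log2 fold changes and their standard errors, used here only to place reads and not printed, and p-values, adjusted p-values and a status, which were not used. The deposited name of the comparison holds the word deseq, which points to DESeq, but the study's text does not name that tool.

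Of 40904 rows, 17484 without a gene name stayed out. Each mean was resolved into a pair of whole read numbers, 1 for each library (size factors 1.034 for the cornea and 0.967 for the limbus). The mean allowed several read pairs for 11299 genes, where the pair was taken whose predicted standard error met the deposited one, 120 genes with the help of genes of like level. For 17437 of 17442 genes (99.97%) the miss was at most 0.001, and for the 10 genes at most 4.37e-06. Where several pairs were possible, the pair was chosen mainly by this miss, so a small miss does not show that a pair is right. The next best pair of Ly6a missed by 0.000364 and would also have passed 0.001. Reads are therefore derived values. The step was tested on data simulated for limbus against cornea with the same model and size factors that it inverts. All 17065 genes were found exactly, and 200 of 200 genes changed 4-fold had their direction. The other genes were simulated without a difference. Because the model was shared, the test checks the inversion only, and cannot show that the deposited values follow that model or the number of libraries.

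Ratios are limbus over cornea of normalized reads, with the limbal share's exact 95% Clopper-Pearson interval. Where a library had 0 reads, a floor of 3 reads gave the bound. The design had named edgeR for counts per sample, which the table does not hold. Alternatives were other scalings, a pseudocount of 1, stricter read limits, the next best read pair and another gene length. The members and lists were chosen with earlier results of these data known. All 10 genes are named. From each list the highest, the lowest and the most abundant gene are named, and every gene may be named in lists of 6 genes or fewer. Genes named outside that rule were chosen after their values were seen. The share of all genes with at least 10 reads was added to the planned one, over genes that passed 3 reads in each library, after the values were seen. Python 3.11.15, numpy 2.4.6, pandas 2.3.3, scipy 1.17.1 and matplotlib 3.10.9 were used.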

Additional observations from a re-analysis of the deposited data

How the results depend on the processing

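No paired analysis was possible because no values per numbered sample were given in the table, and for the same reason no sample could be left out in turn. Against 2.40 on the log2 scale, the median of the 10 genes was 2.60 with scaling to total reads and 1.69 relative to the stromal matrix genes. It was 2.07 over the 8 genes past 10 reads in each library and 2.98 with the next best pair of reads. The value of 2.98 includes pairs for Thy1 and Clec3b that could not give the deposited values. Scaling to total reads shifted all genes by 0.21 and the stromal reference by −0.71. Fap turned to −0.15 relative to the stromal matrix genes. In the other 77 combinations of a gene and an alternative, the direction and side of the threshold stayed. Many of these were fixed in advance and are no checks. The stricter read limits only dropped genes, the pseudocount kept the main intervals, and Fap had no other pair of reads. The size changed with the scalings and the next best pair. Fap had no next best pair of reads, and those of Clec3b (log2 1.07) and Thy1 (1.56) could not give the deposited values, so they are no alternatives. For the other genes the next best pair missed the deposited standard error by at least 379 times as much as the pair used. Pi16 then came to 2.29, Cd34 to 4.07, Ptgds to 4.83, Dpp4 to 3.67, Vim to 6.51, Ly6a to 7.99 and Pdgfra to −1.29. Among these genes, the order of the gaps rests on the choice of pair. With 1 or 2 cornea reads, Pi16 and Clec3b have ratios limited by depth.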

Other observations

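Surface proteins used to isolate mesenchymal stromal cells were split between the tissues. Of 13 such genes with at least 10 reads, 7 favoured the limbus and 6 the cornea beyond counting error, with a median of 0.43 on the log2 scale. Icam1, an adhesion molecule bound by leukocytes, had 32 corneal and 756 limbal reads (log2 4.66). Cd44, an adhesion molecule that binds hyaluronan, had 13065 and 2934 (log2 −2.06), the lowest ratio of the list. Cd9, a tetraspanin and the most abundant of them, had 15789 and 9497 reads (log2 −0.64). Relative to the stromal matrix genes 5 favoured the limbus and 8 the cornea, so the balance turned with the scaling.

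Corneal endothelial genes had 2602 corneal and 6441 limbal reads in all, and 3 of 4 were higher in the limbus. Col8a2, a collagen of Descemet's membrane, had 1319 and 4323 reads (log2 1.81), and Slc4a4, a bicarbonate transporter, had 222 and 249 (log2 0.26, within counting error). Relative to the stromal matrix genes 2 of the 4 favoured the limbus and 1 the cornea.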
